A study of Mus musculus with 104 samples.

Results

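The voltage-gated sodium and calcium channel genes and the HCN channel genes were taken from the RefSeq count table by their symbols. They comprised 10 sodium channel alpha subunits, 3 sodium channel beta subunits (Scn4b was left out), 10 calcium channel alpha1 subunits, 4 alpha2delta subunits, 4 calcium channel beta subunits and 4 HCN channels. These were 35 of the 24060 genes in the table. A filter on low counts was passed by 33 of the 35 and by 15723 genes in all. Scn4a and Scn11a did not pass it and were not tested.

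The libraries came from the cerebral cortex of wild type C57BL/6 mice, all 6 months old, and were made with a stranded Illumina TruSeq kit. There was 1 library per mouse, in 13 lines of 8, each with 4 females and 4 males. The lines are named after genes (Tbc1d8, Gsg1l, Rgs9, Morf4l1, Dach1, Kdm3b, Zswim6, Ece2, Arpp19, Hrk, Rasgef1a, Ppp1ca and Pcdh20), but every mouse carried the wild type genotype, and no treatment was named. The labels record the line as a batch, so a line and a batch cannot be told apart. Nothing in the labels says whether mice of a line shared parents or a cage, and a p-value here measures the spread between these libraries.

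Total counts, in units of 1e6 reads, ran from 3.39 to 33.5 with a median of 28.4. The library with the fewest reads (Kdm3b female replicate 22) stood apart from the second lowest, at 23.9. Of the libraries, 96 were on plate 1 and 8 on plate 2. In 3 libraries the reads of Xist, of 4 Y-linked genes or of both went against the labelled sex. Rasgef1a male replicate 40 (0 Y-linked reads, 32425 of Xist) and Rgs9 female replicate 43 (4479 and 3) did so in both. Rasgef1a female replicate 39 had 0 Y-linked reads, which goes with its label, but only 2 reads of Xist. Values below are given with all libraries under their labelled sex, and without these 3 where that changed a call. CPM here are counts scaled to 1e6 reads. As a check of the tissue label, the mean log2 CPM of 5 pan-neuronal genes had a median of 9.64 over all libraries. That of 10 excitatory neuron genes had a median of 7.44 and that of 9 hippocampal genes one of 0.93. The striatal and thalamic lists had medians of 3.98 and 3.63. The lists hold different genes, so these means do not give shares of tissue.

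Voltage-gated sodium channels open when the membrane is depolarised and carry the rising phase of the action potential. The alpha subunit forms the pore, and beta subunits adjust its gating and its place in the membrane. Voltage-gated calcium channels have an alpha1 pore, and many also have auxiliary alpha2delta and beta subunits that bring the pore to the cell surface. Calcium channels couple depolarisation to transmitter release, gene regulation and burst firing. HCN channels open on hyperpolarisation and are known in cortex for setting resting potential and dendritic integration.

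Levels between genes were compared in the authors' FPKM (fragments mapped, scaled by gene length and by library depth). Of the 35 genes, 25 had a median above 1 FPKM: 4 of 10 sodium alpha, 3 of 3 sodium beta, 8 of 10 calcium alpha1, 3 of 4 alpha2delta, 4 of 4 calcium beta and 3 of 4 HCN genes.

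Of the sodium channel pores, 3 made up nearly all of the summed FPKM of the alpha subunits. Scn8a, the pore of nodes of Ranvier and axon initial segments, ranged from 46.39 FPKM in the lowest library to 63.98 in the highest, with a median of 59.86. Scn2a1, a pore of excitatory neurons and their axons, had a median of 56.37 FPKM (45.91 to 65.85), and Scn1a, known for its role in fast-spiking interneurons, a median of 50.43 FPKM (36.64 to 59.38). Their median shares of the summed alpha subunit FPKM were 34.6%, 32.7% and 28.9%. The 3 ranges overlapped. Within a library Scn8a was above Scn2a1 in 84 libraries, and Scn2a1 was above Scn1a in 98. Scn3a, the pore best known from the embryonic brain, followed at 5.14 FPKM, and its highest library (6.24) lay below the lowest of Scn1a.

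The other alpha subunits had medians below 1 FPKM. Scn7a, a sodium sensor of glia and circumventricular organs, had a median of 0.960 FPKM. Scn9a and Scn10a, pores of sensory neurons, had medians of 0.0841 and 0.0491 FPKM. Scn11a, also of sensory neurons, had a median of 0.0108 FPKM and no reads in 20 libraries. Scn4a, the pore of skeletal muscle, had no reads in 55 libraries and 77 reads in all libraries together. Having no reads at this depth does not show that a gene was silent.

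Among the sodium channel beta subunits, Scn2b, which is linked to alpha subunits by a disulphide bond, had a median of 83.06 FPKM (74.32 to 90.24), and Scn3b a median of 17.04 FPKM (13.4 to 25.31). The ranges of these genes did not overlap.

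Among the calcium channel pores, Cacna1a, the P/Q-type pore of presynaptic terminals, was the highest in all libraries, with a median of 44.77 FPKM (39.08 to 50.17) and 26.3% of the summed alpha1 FPKM. Cacna1e (R-type) followed at 28.28 FPKM, then Cacna1b (N-type) at 24 and the T-type pores Cacna1i and Cacna1g at 23.96 and 22.03 FPKM. Cacna1b and Cacna1i did not differ beyond their spread: Cacna1b was the higher in 50 libraries. The L-type pores Cacna1d and Cacna1c had medians of 10.08 and 8.85 FPKM, and the third T-type pore, Cacna1h, 7.52 FPKM. Cacna1s, the skeletal muscle pore, and Cacna1f, the retinal pore, had medians of 0.134 and 0.0759 FPKM.

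The auxiliary subunits and HCN channels each had a leading member. Cacnb3 had a median of 111.3 FPKM (100.3 to 133.4), 50.5% of the summed calcium beta FPKM. It lay above Cacnb4 at 53.33, Cacnb1 at 44.87 and Cacnb2 at 10.81 FPKM. Cacna2d1, a receptor of gabapentin, had a median of 44.32 FPKM, Cacna2d3 38.45, Cacna2d2 10.19 and Cacna2d4 0.484 FPKM. Hcn2 had a median of 41.53 FPKM (67.4% of the summed HCN FPKM), Hcn3 4.37 and Hcn4, the sinoatrial pacemaker channel, 0.600 FPKM. Hcn2 was above Hcn3, and Hcn3 above Hcn4, in every library.

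Some of these orders rest on the annotation. In the authors' FPKM on Ensembl genes the median of Cacna2d3 (34.9) lay above that of Cacna2d1 (24.47), and those of Cacna1i (21.52), Cacna1b (21.45) and Cacna1g (17.14) lay above that of Cacna1e (16.17). The Ensembl medians of Cacna1h and Cacna1c were 5.83 and 5.63 FPKM. The number of genes above 1 FPKM was again 25.

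**Figure D1:**
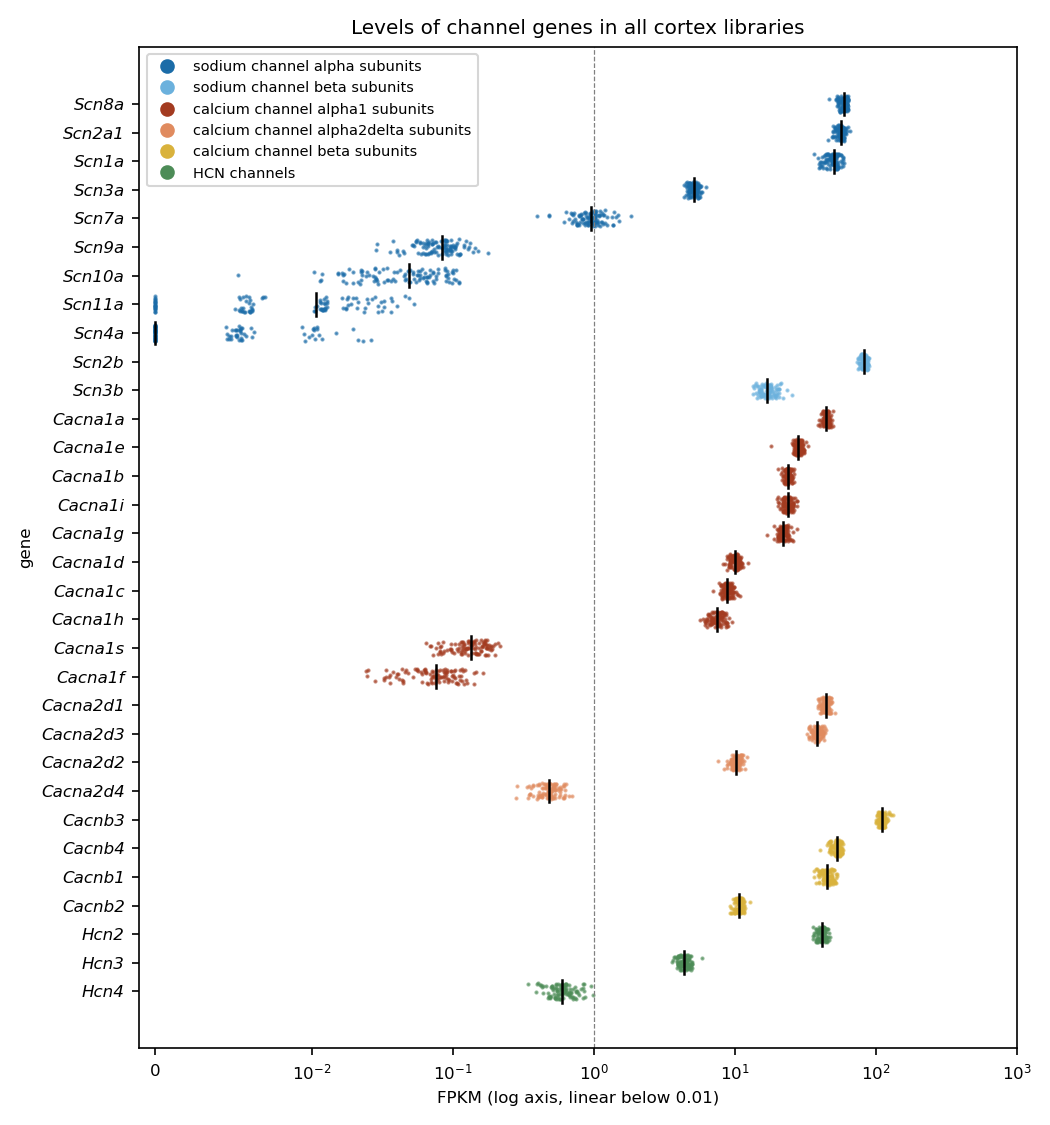
FPKM of channel genes (x axis, logarithmic above 0.01 FPKM and linear below) in all cortex libraries (points), with the median as a black bar and colours for the 6 subfamilies; the dashed line is at 1 FPKM. Cacnb3 (111.3 FPKM), Scn2b (83.06) and Scn8a (59.86) lie far to the right, and the sensory neuron and muscle pores lie below 1 FPKM.

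The spread within a line and sex was small for the abundant channels. Scn2b varied least, with a standard deviation (SD) of 0.054 on the log2 CPM scale, and 5.5% of all tested genes had a smaller one. Cacnb3 (0.064), Cacna1b (0.068), Cacna1a (0.071) and Scn8a (0.076) came next. The largest SD was that of Scn10a (0.516), which had a median of 9 reads per library. Within the subfamilies the widest members were Scn10a, Scn3b (0.171), Cacna1f (0.504), Cacna2d4 (0.215), Cacnb1 (0.129) and Hcn4 (0.280), and the narrowest Scn8a, Scn2b, Cacnb3, Cacna1b, Cacna2d1 (0.080) and Hcn2 (0.089). The median SD over the 33 tested members was 0.099, against 0.118 over all 15723 tested genes. Among genes above 5 log2 CPM the order turned, with a median SD of 0.091 for 24 members and 0.073 for 6121 genes.

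The lines were compared first, to see whether the 13 differed. Of the 33 tested members, 9 differed between lines (F-test, adjusted p under 0.05 by Benjamini-Hochberg over all tested genes), which was 27.3% of them, against 9.61% of all tested genes. In order of p they included Cacnb4 (adjusted p = 4.42e-06), Scn1a (0.000204), Cacna1i (0.000301), Scn8a (0.000516), Cacna1h (0.0119), Cacna2d4 (0.0164), Cacnb3 (0.0177) and Scn2b (0.0471). The calls fell mostly on abundant genes: above 5 log2 CPM, 8 of 24 members (33.3%) and 15.3% of 6121 genes were called. In 2 lines, Tbc1d8 and Gsg1l, members were called against the mean of the other 12 lines. Without these 2 lines no member was called between the remaining 11, and 0.121% of all genes were. The 2 lines were left out because members were called in them, so this result is not independent of those calls. On plate 1 alone, 5 members were called between lines, 6 in Tbc1d8 and 6 in Gsg1l. The shares of all tested genes called in that fit, which had fewer libraries, are not given here.

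In the Tbc1d8 line 10 members changed, 3 higher and 7 lower, against 12.4% of all tested genes. In the Gsg1l line 6 changed, 1 higher and 5 lower, against 10.4% of all tested genes. The 6 genes of the Gsg1l line were among the 10 of the Tbc1d8 line, with the same signs, but both comparisons are made with the same other lines as reference, so the values are given side by side and no overlap is tested. Compared directly, Tbc1d8 and Gsg1l differed in no member (2 at an unadjusted p under 0.05) and in 0.00636% of all tested genes by edgeR. The median log2 difference over the 33 members was -0.006 in Tbc1d8 and -0.009 in Gsg1l, against 0.005 and 0.006 over all genes. In each of the other 11 lines no member was called by edgeR, 0 to 8 members had an unadjusted p under 0.05, and DESeq2 called none. The adjustment was made within each line, so the bar for a call differed between lines. By edgeR Cacna2d4 in Dach1 had an unadjusted p of 0.000285 and was not called, while Cacnb3 in Tbc1d8, at 0.00571, was. In simulated counts 57% of genes changed 1.1-fold in Tbc1d8 were found, so a missing call does not show a missing difference. With 4 tissue scores or the oligodendrocyte score alone as covariates Scn1a was called in Morf4l1, with log2 differences of 0.18 and 0.17 (adjusted p = 0.0426 and 0.0475). Without Dach1 female replicate 8 Cacna2d4 was called in Dach1, with a log2 difference of -0.37 (adjusted p = 0.043).

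Cacnb4 (chr2:52428320-52676609, minus strand, GRCm38), a calcium channel beta subunit, was lower in both lines. Its CPM in the Tbc1d8 libraries ran from 386 to 421 with a median of 414, in the Gsg1l libraries from 343 to 479 with a median of 415, and in the 88 libraries of the other 11 lines from 401 to 509 with a median of 472. All 8 Tbc1d8 libraries and 7 of 8 Gsg1l libraries lay below the lowest mean of the other 11 lines (458 CPM, Rgs9), although the ranges of single libraries overlapped. The log2 difference from the mean of the other 12 lines was -0.17 ± 0.03 (standard error) in Tbc1d8 (adjusted p = 9.95e-06) and -0.16 ± 0.03 in Gsg1l (adjusted p = 6.35e-05).

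Scn1a (chr2:66270781-66440837, minus strand) was lower in both lines as well. It ran from 328 to 377 CPM (median 348) in Tbc1d8, from 319 to 437 CPM (median 356) in Gsg1l and from 302 to 492 CPM (median 424) in the other 88 libraries. All 8 Tbc1d8 libraries and 6 of 8 Gsg1l libraries lay below the lowest of the other line means (395 CPM). The log2 difference was -0.24 ± 0.05 in Tbc1d8 (adjusted p = 9.49e-05) and -0.17 ± 0.05 in Gsg1l (adjusted p = 0.0112). Scn1a lies on chromosome 2 between its neighbours Scn2a1 and Scn9a, in a cluster that runs from Scn3a (start 65457118, GRCm38) to Scn7a (end 66784910). The other genes of the cluster did not share one value in Tbc1d8: the log2 difference was -0.09 ± 0.03 for Scn2a1, which was called, and 0.06 ± 0.04 for Scn3a, 0.25 ± 0.15 for Scn9a and -0.06 ± 0.12 for Scn7a, none of these 3 called.

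Scn8a (chr15:100869863-101045938, plus strand), the alpha subunit with the highest median, had 592 to 644 CPM (median 620) in Tbc1d8, 517 to 702 CPM (median 636) in Gsg1l and 592 to 736 CPM (median 691) in the other 88 libraries. The 8 Tbc1d8 libraries were all below the lowest other line mean (664 CPM). The log2 difference was -0.13 ± 0.03 in Tbc1d8 (adjusted p = 0.000209) and -0.10 ± 0.03 in Gsg1l (adjusted p = 0.00728). The Gsg1l value rested in part on 1 library, Gsg1l male replicate 13 at 517 CPM: without it the difference was -0.065 and was not called (adjusted p = 0.137). Without the same library the Gsg1l difference of Scn1a was -0.138, also not called (adjusted p = 0.0709). In that library the pan-neuronal score, a mean log2 CPM, was 9.73 (9.55 to 9.71 in the other 7 Gsg1l libraries) and the microglia score 5.57 (5.31 to 5.53). The scores of channel partners (6.26, against 6.34 to 6.40), oligodendrocyte precursors (4.86, against 4.90 to 5.15) and thalamic genes (3.56, against 3.58 to 3.70) lay below the other 7. The part of these lists in its channel levels was not tested. The library had the lowest level of all libraries for Cacna1b, Cacna1c, Cacna1d, Cacna1e, Cacna2d1, Cacnb4, Scn2a1, Scn3a and Scn8a, and the highest for Cacnb3.

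Cacna1i (chr15:80287238-80398292, plus strand), a T-type pore, had 197 to 226 CPM (median 216) in Tbc1d8, 194 to 231 CPM (median 215) in Gsg1l and 198 to 276 CPM (median 238) elsewhere. Its log2 difference was -0.15 ± 0.03 in Tbc1d8 (adjusted p = 0.00071) and -0.14 ± 0.03 in Gsg1l (adjusted p = 0.00149). All 16 libraries of both lines lay below the median of the libraries outside their line. Hcn2, Hcn3 and Hcn4 were not called in either line, and their log2 differences ran from -0.03 to 0.10.

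Cacnb3 (chr15:98628436-98644536, plus strand), the calcium channel beta subunit with the highest FPKM, was higher in both lines while Cacnb4 was lower. It had 333 to 367 CPM (median 352) in Tbc1d8, 308 to 392 CPM (median 367) in Gsg1l and 305 to 371 CPM (median 334) elsewhere. Its log2 difference was 0.07 ± 0.02 in Tbc1d8 (adjusted p = 0.047) and 0.10 ± 0.02 in Gsg1l (adjusted p = 0.00178). The Tbc1d8 call was marginal, and leaving out any of 7 of its 8 libraries ended it. Cacnb1 and Cacnb2 were not called in either line.

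**Figure D2:**
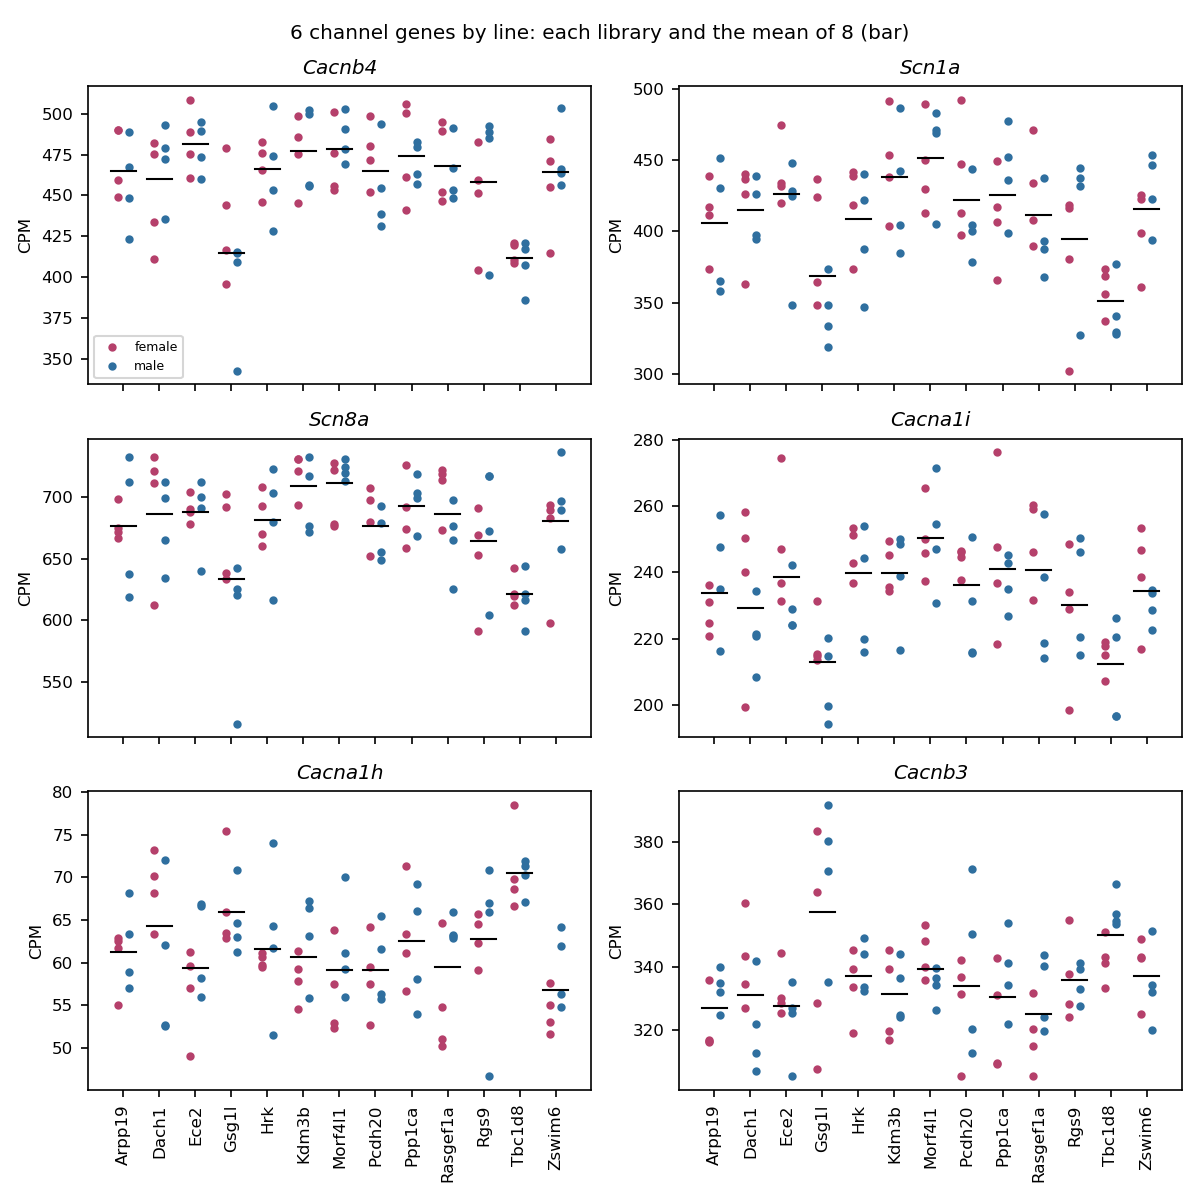
CPM (y axis) of 6 channel genes in each of the 13 lines (x axis), with females and males as labelled in 2 colours, 8 libraries per line, and a bar for the line's mean; the y axes do not start at 0. Cacnb4, Scn1a, Scn8a and Cacna1i have their lowest line means in the Tbc1d8 and Gsg1l lines, although the lowest single Scn1a library (302 CPM) is in Rgs9, and Cacnb3 and Cacna1h have their highest means there.

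The Tbc1d8 line had 4 further calls. Cacna1h, a T-type pore, was higher at 66.6 to 78.5 CPM (median 70.0), above the highest mean of the other 11 lines (64.3 CPM, Dach1) in all 8 libraries, with a log2 difference of 0.21 ± 0.05 (adjusted p = 0.000727). Cacna1h and Cacna1i, both T-type, thus differed in opposite directions. Cacna1c, an L-type pore, was higher at 131 to 158 CPM (median 143), against 114 to 161 (median 130) in the other 88 libraries, with a log2 difference of 0.12 ± 0.03 (adjusted p = 0.00837). Cacna2d4, with 81 reads in the median library, was lower at 1.66 to 2.85 CPM (median 2.47), against 1.98 to 4.09 (median 2.85) elsewhere, with a log2 difference of -0.27 ± 0.08 (adjusted p = 0.0193). Its line mean was lower still in Dach1 (2.28 CPM against 2.34 in Tbc1d8), where the log2 difference was -0.32 ± 0.08 and was not called (adjusted p = 0.132). Scn2a1 was lower at 435 to 497 CPM (median 445), against 433 to 567 (median 492) elsewhere, with a log2 difference of -0.09 ± 0.03 (adjusted p = 0.0254). Of these 4 genes Cacna1c, Cacna2d4 and Scn2a1 lost their call without Tbc1d8 male replicate 45 (adjusted p = 0.0627, 0.103 and 0.0782). So did Cacnb3 (0.0968), which left 6 called members. Tbc1d8 male replicates 45 and 47 were on plate 2, and on plate 1 alone Cacna1c, Cacna2d4, Scn2a1 and Cacnb3 lost their Tbc1d8 call too. Cacna2d4 also lost it without Tbc1d8 female replicate 46 (0.0988) or male replicate 46 (0.0533). Scn2a1 lost it without any of 5 of the 8 Tbc1d8 libraries. In Gsg1l Cacna1h, Cacna1c, Cacna2d4 and Scn2a1 had differences of 0.10 ± 0.05, -0.02 ± 0.04, 0.04 ± 0.08 and -0.06 ± 0.03 and were not called. The difference between the lines was not called for any of them.

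Scn2b was called between lines but in no single line. Its line means ran from 365 CPM in Tbc1d8 and 367 in Rgs9 to 392 in Kdm3b, with SDs of 7.61 to 19.9 CPM. Its call was lost under 21 of 36 other settings. With Tbc1d8 compared with the 11 lines other than Gsg1l, 11 members were called, against 15% of all tested genes. Scn2b (-0.06 ± 0.02, adjusted p = 0.0376) was among them. With Gsg1l compared with the same 11 lines 6 members were called, against 13.6% of all tested genes.

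**Figure D3:**
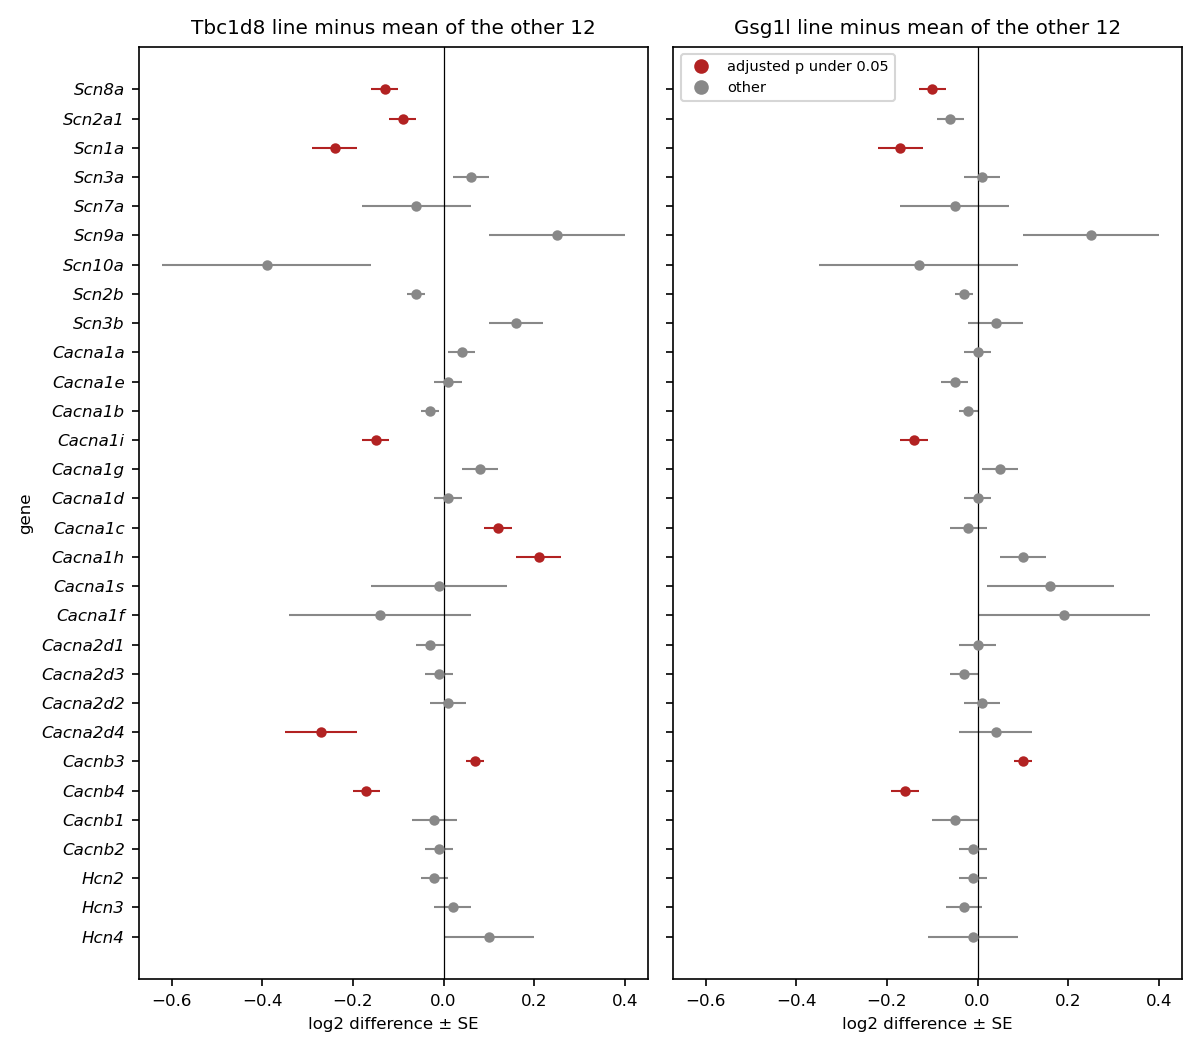
log2 difference of tested channel genes (y axis) in the Tbc1d8 line (left) and the Gsg1l line (right) from the mean of the other 12 lines (x axis, points with standard error), with red for adjusted p under 0.05. The called genes lie within 0.27 of 0, and the wide bars belong to genes with few reads.

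Other lists moved with these lines in part. In Tbc1d8 and Gsg1l, 0 of 11 oligodendrocyte genes were called, but their median log2 differences were -0.10 and -0.12, and the oligodendrocyte score (the mean log2 CPM of the 11 genes) had medians of 6.11 and 6.01, against 6.21 in the other 11 lines (5.91 to 6.27, 5.93 to 6.48 and 5.70 to 6.54). Of 5 pan-neuronal genes, 2 were lower in Tbc1d8, and of 12 interneuron genes 1 was higher and 1 lower in Tbc1d8 and 2 were higher and 2 lower in Gsg1l. Among 10 excitatory neuron genes Tbc1d8 had 3 calls (2 up, 1 down) and Gsg1l 2 (both up). Tbc1d8 also had calls for 3 of 11 striatal genes (2 up, 1 down) and Gsg1l for 4 (2 up, 2 down), and of 8 thalamic genes 2 were lower in both lines (Rora and Slc17a6). Of 7 microglia genes 1 was higher in Gsg1l (P2ry12), and of 6 oligodendrocyte precursor genes 1 was higher in Tbc1d8. No gene of the astrocyte, endothelial, mural cell, meningeal, choroid plexus or hippocampal lists was called in either line. The part of these lists in the channel differences was not tested. With the oligodendrocyte score as a covariate 8 members were called in Tbc1d8 and 6 in Gsg1l. With 4 tissue scores (striatal, oligodendrocyte, choroid plexus and erythroid) as covariates 5 and 4 were. The shares of all tested genes called in these fits are not given here. In bulk tissue, fewer cells of a type and less RNA per cell cannot be told apart.

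A list of channel partners was also followed. Besides proteins known to bind these channels it held genes of other channels, such as Nalcn, Unc79, Unc80, Tpcn1 and Tpcn2. Of its 37 genes 34 were tested. In Tbc1d8, 2 were higher (Fgf11 and Rimbp2) and 6 lower (Fgf12, Ank3, Stac2, Fgf14, Nalcn and Calm2). In Gsg1l, 6 were lower (Fgf12, Ank3, Nalcn, Ank2, Rims1 and Cacng2). Fgf12, an intracellular modulator of sodium channel inactivation, differed by -0.16 ± 0.03 in Tbc1d8 (adjusted p = 1.24e-06) and -0.12 ± 0.03 in Gsg1l (adjusted p = 0.000759). Ank3, which encodes the ankyrin that anchors sodium channels at the axon initial segment, differed by -0.11 ± 0.03 and -0.12 ± 0.03 (adjusted p = 0.00505 and 0.00274). In Tbc1d8 Stac2 differed by -0.17 ± 0.05 (adjusted p = 0.00923) and Fgf14, a relative of Fgf12, by -0.15 ± 0.04 (adjusted p = 0.0165). In Gsg1l Nalcn, a sodium leak channel, differed by -0.10 ± 0.03 (adjusted p = 0.00884) and Ank2 by -0.07 ± 0.02 (adjusted p = 0.0119). The median over the 34 was -0.01 in Tbc1d8 and -0.03 in Gsg1l.

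The promoters of 4 genes that were lower in both lines are shown so that their base composition can be compared. They run from 250 bases before to 50 bases after a RefSeq transcription start (GRCm38.p6); where the table holds several windows for a gene, the most upstream of them is shown. The gene models of Cacnb4 and Scn8a begin further upstream than these windows. RefSeq gave promoters for 25 of the 35 genes, 35 in all. The capitals mark the TATA box TATAAA, the CCAAT box CCAAT and the GC box GGGCGG, searched on both strands.
Scn1a, chr2:66440788-66441087, minus strand: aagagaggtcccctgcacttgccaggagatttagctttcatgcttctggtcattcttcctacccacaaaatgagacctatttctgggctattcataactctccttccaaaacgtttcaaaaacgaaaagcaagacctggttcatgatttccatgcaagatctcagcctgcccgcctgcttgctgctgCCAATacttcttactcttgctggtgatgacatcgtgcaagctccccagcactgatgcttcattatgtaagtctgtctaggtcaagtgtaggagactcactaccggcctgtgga
Cacnb4, chr2:52676094-52676393, minus strand: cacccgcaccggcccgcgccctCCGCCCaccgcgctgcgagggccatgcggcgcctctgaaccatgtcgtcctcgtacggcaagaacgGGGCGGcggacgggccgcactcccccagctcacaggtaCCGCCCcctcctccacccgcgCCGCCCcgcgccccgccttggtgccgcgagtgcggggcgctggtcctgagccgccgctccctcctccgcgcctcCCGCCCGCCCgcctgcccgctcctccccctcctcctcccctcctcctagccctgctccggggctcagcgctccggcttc
Scn8a, chr15:100870395-100870694, plus strand: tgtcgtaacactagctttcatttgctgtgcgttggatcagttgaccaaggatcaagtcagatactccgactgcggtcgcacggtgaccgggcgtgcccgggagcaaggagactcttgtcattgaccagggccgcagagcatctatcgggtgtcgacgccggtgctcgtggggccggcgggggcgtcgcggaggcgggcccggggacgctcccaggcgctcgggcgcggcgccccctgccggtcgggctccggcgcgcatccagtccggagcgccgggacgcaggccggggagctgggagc
Cacna1i, chr15:80286988-80287287, plus strand: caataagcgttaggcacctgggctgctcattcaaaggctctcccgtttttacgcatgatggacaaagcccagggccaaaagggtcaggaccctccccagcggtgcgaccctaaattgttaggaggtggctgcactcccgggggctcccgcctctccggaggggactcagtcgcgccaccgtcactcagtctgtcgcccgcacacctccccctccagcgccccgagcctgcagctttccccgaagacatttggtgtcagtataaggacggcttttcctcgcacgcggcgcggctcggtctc

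The 4 windows differed in base composition. Scn1a had 47.3% G and C and 1 CCAAT box, Cacnb4 78.3% and 6 GC boxes, and Scn8a (70.0%) and Cacna1i (62.7%) none of the 3 motifs. Over 32851 promoters of 300 bases, 13.6% held a TATA box, 37.4% a CCAAT box and 35.7% a GC box, and the median G and C content was 52.7%. Over the 35 promoters of the channel genes 2, 7 and 16 held them, and the median was 59.7%. Overlapping matches such as adjoining GC boxes are joined in the capitals. A match is a run of letters and not a measured site.

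Females and males were compared over all lines. Of the 33 members 3 were called, 1 higher and 2 lower in females, which was 9.09%, against 8.57% of all tested genes. The share was thus near that of all genes.

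Scn10a, a sodium channel of pain-sensing neurons, had a total of 296 reads in the 52 female libraries and 681 in the 52 male libraries. Its level in females ran from 0.0341 to 0.564 CPM with a median of 0.181, and in males from 0.119 to 0.716 CPM with a median of 0.445. The means were 0.202 ± 0.105 CPM (SD, n = 52) and 0.454 ± 0.151 CPM (SD, n = 52). The log2 difference of females from males was -1.16 ± 0.12 (adjusted p = 4.15e-13), and the mean of the males was higher in 13 of 13 lines, with no overlap between the 4 females and the 4 males in 6. The highest female library was Rgs9 female replicate 43 (0.564 CPM), one of those whose sex-linked genes went against the label, and the 2 others had 0.0989 CPM (Rasgef1a female replicate 39) and 0.240 CPM (Rasgef1a male replicate 40). Without these 3 libraries the log2 difference of Scn10a was -1.207 (adjusted p = 2.79e-14). With so few reads per library (medians of 5 and 13) single values carry a large counting error. Its neighbour Scn11a lies 0.034 megabases from it on chromosome 9 and, not tested, had 97 reads in females and 125 in males.

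Scn10a has 1 RefSeq promoter, printed here because this gene had the largest log2 difference between the sexes among the members. It has 51.7% G and C and none of the 3 motifs.
Scn10a, chr9:119718983-119719282, minus strand: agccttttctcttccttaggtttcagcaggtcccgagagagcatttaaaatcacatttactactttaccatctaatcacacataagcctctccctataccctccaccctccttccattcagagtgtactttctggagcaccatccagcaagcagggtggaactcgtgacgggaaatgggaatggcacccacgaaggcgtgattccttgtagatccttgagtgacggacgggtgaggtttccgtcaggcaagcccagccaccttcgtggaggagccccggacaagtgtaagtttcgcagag

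Scn2b was slightly higher in females, at 349 to 408 CPM (median 386), than in males, at 339 to 410 CPM (median 372). The log2 difference was 0.05 ± 0.01 (adjusted p = 0.000572), and the female mean was higher in 13 of 13 lines although the ranges overlapped. Without the 3 libraries that went against their labels 2 members were called, Scn10a and Scn2b. On plate 1 alone 5 members were called, Cacna1d (-0.06) and Cacna1i (0.06) being added. The shares of all tested genes called in these fits, which can move too, are not given here. Of the 34 channel partners 3 were higher in females (Cacng4, Nfasc and Fgf11) and 3 lower (Cabp1, Cacng7 and Stac2). The smallest p-values were those of Cabp1 (-0.10 ± 0.02, adjusted p = 5.82e-05), Cacng7 (-0.06 ± 0.01, adjusted p = 0.000113), Cacng4 (0.11 ± 0.03, adjusted p = 0.00193) and Nfasc (0.05 ± 0.02, adjusted p = 0.0173). The oligodendrocyte score had a median of 6.23 in females and 6.16 in males, with 2 of 11 of its genes called higher in females, and its part in these differences was not tested.

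**Figure D4:**
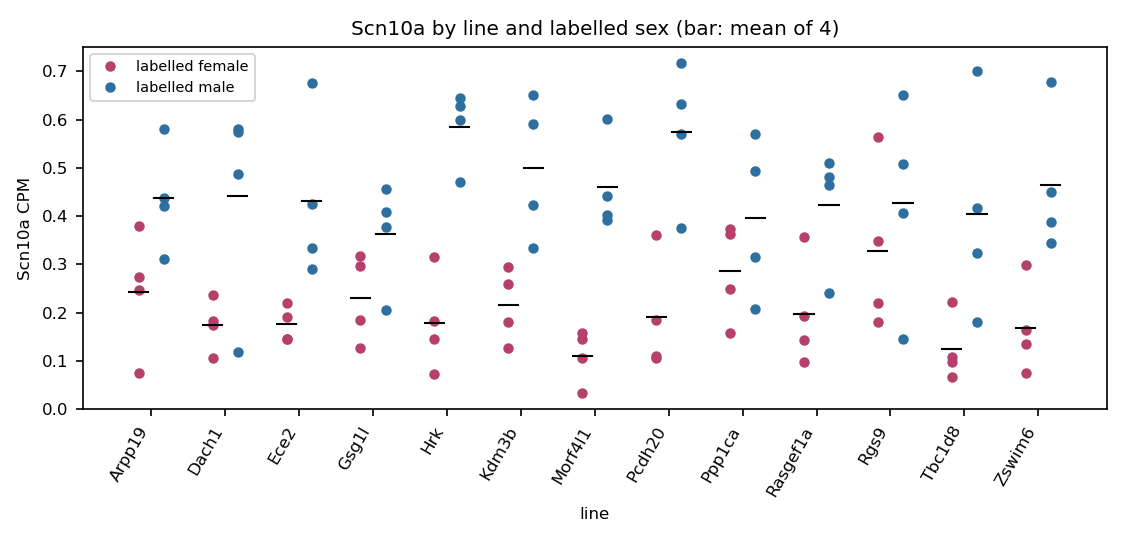
Scn10a level in CPM (y axis, from 0) by line (x axis) and labelled sex, with 1 point per library and a bar for the mean of 4. The male mean is above the female mean in all 13 lines, and the highest labelled female (0.564 CPM) is in the Rgs9 line.

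Channel genes were also followed along list scores, which vary between libraries within a line and sex. A slope is the change in a gene's log2 CPM for 1 unit of the score, with line and sex in the model. Along the oligodendrocyte score (SD 0.145 over the libraries) 14 of 33 members were called, 7 with positive and 7 with negative slopes, against 13.8% of all tested genes. Above 5 log2 CPM 12 of 24 members and 18.2% of genes were called. The median slope was -0.043 over the members and 0 over all genes.

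The negative slopes were led by Scn3b, a sodium channel beta subunit, with a slope of -0.79 ± 0.09 (adjusted p = 1.52e-10). Its level ran from 57.2 to 106 CPM over the libraries with a median of 72.6. Cacna1c had a slope of -0.36 ± 0.06 (adjusted p = 3.62e-06). Scn7a, Cacnb3, Cacna1h and Scn3a also fell along the score, with slopes from -0.83 to -0.16. The positive slopes were led by Scn8a, at 0.26 ± 0.05 (adjusted p = 5.77e-05), and Cacnb4, at 0.26 ± 0.05 (adjusted p = 0.000181). Cacna2d2, an alpha2delta subunit, had a slope of 0.30 ± 0.07 (adjusted p = 0.000857). Scn1a and Scn2b also rose along the score, with slopes from 0.12 to 0.35.

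One library, Zswim6 female replicate 50, lay far from the others on the score, with a deviation of -0.52 from its line and sex, against 0.36 for the next. Scn3b was highest in it (106 CPM) and Cacna2d2 lowest (42.1 CPM). Without it 10 members were called, against 9.68% of all tested genes, and Scn2b (0.102, adjusted p = 0.128), Scn3a (-0.137, adjusted p = 0.26) and Scn7a (-0.632, adjusted p = 0.0795) were not. The slope of Scn3b was then -0.744 (adjusted p = 7.08e-08).

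Markers of other cells moved along the same score. Of 7 genes of meninges and fibroblasts 5 fell along it (median slope -0.92), of 6 tested choroid plexus genes 4 fell, and of 7 astrocyte genes 4 fell. Neuronal lists moved in both directions: of 12 interneuron genes 3 rose and 3 fell, of 10 excitatory neuron genes 3 rose and 2 fell, of 9 hippocampal genes 1 rose and 2 fell, and 0 of 5 pan-neuronal genes were called. With the score of meninges and fibroblasts as a covariate 12 members were called, and the slope of Scn2b (adjusted p = 0.136) was not. The share of all tested genes called in that fit is not given here. Which cells the channel transcripts came from was not tested. Of the 34 channel partners 5 rose (Nfasc, Pex5l, Stac2, Ank3 and Fgf12) and 4 fell (Cacng6, Cacng3, Stac and Fgf13) along the score. Nfasc, which encodes a cell adhesion protein of nodes and paranodes, had a slope of 0.30 ± 0.05 (adjusted p = 2.76e-06), and Pex5l, which encodes the HCN partner known as TRIP8b, 0.34 ± 0.06 (adjusted p = 9.75e-06). Stac2 had a slope of 0.47 ± 0.08 (adjusted p = 1.24e-05) and Cacng6 one of -1.78 ± 0.36 (adjusted p = 0.000125).

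**Figure D5:**
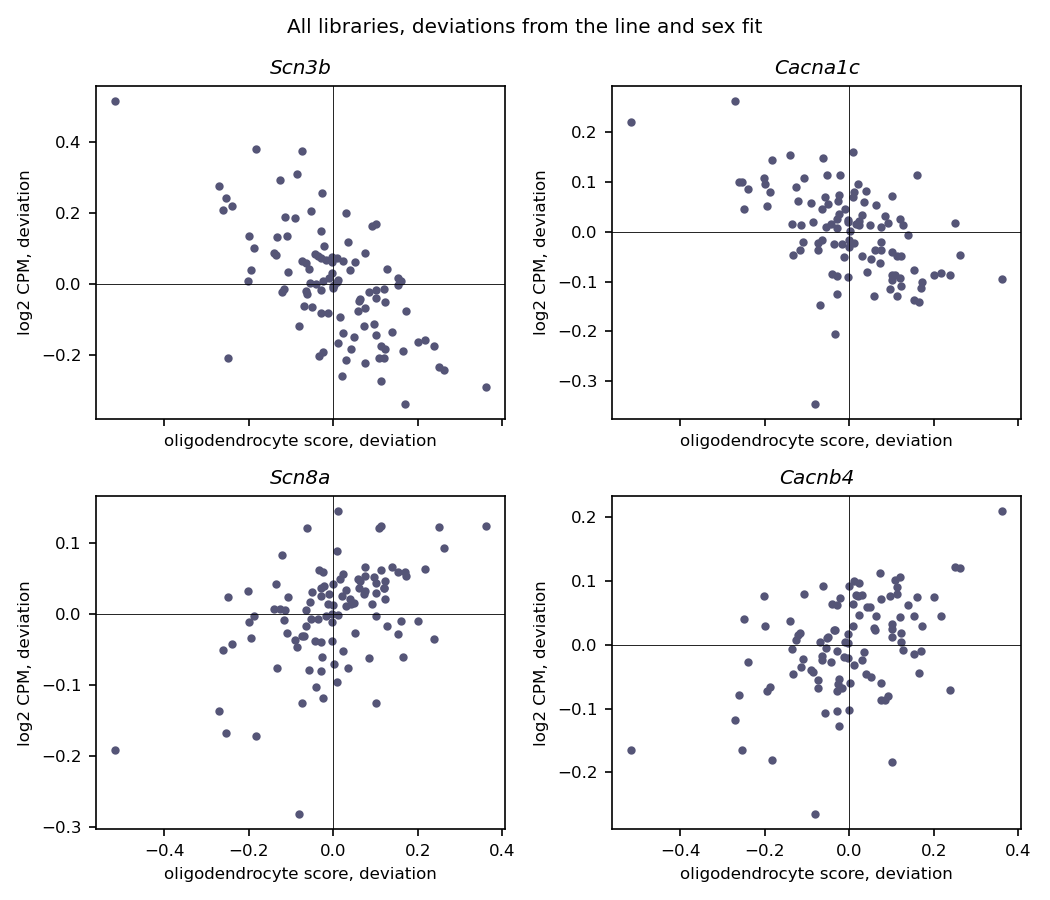
Deviation of log2 CPM from the line and sex fit (y axis) of Scn3b, Cacna1c, Scn8a and Cacnb4 against the same deviation of the oligodendrocyte score (x axis) in all libraries (points). Scn3b and Cacna1c fall and Scn8a and Cacnb4 rise along the score, with slopes of -0.79, -0.36, 0.26 and 0.26, and 1 library lies far to the left.

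Along the interneuron score no member was called by edgeR, 7 had an unadjusted p under 0.05, DESeq2 called 1, and 2.14% of all tested genes were called. Scn1a had the smallest p, with a slope of 0.98 ± 0.31 (adjusted p = 0.0679). Along the striatal score no member was called by edgeR or by DESeq2, none had an unadjusted p under 0.05, and 0.00636% of all genes were called. The filter on low counts changed this. When genes had to reach a mean of 1 CPM, which left 13685 genes tested and took Drd2 and Gpr6 out of the 11 genes of the score, 12 of 29 members were called, 4 rising and 8 falling, against 32.1% of all tested genes. Scn2a1 then had a slope of -0.76 ± 0.12 (adjusted p = 3.97e-07), Cacna2d1 -0.64 ± 0.12 (adjusted p = 2.59e-05), and Cacnb1 0.78 ± 0.20 (adjusted p = 0.0019).

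Some gene models share ground with a neighbour. By RefSeq coordinates Cacna1h overlaps Tpsg1, Cacna1c overlaps Dcp1b, Cacna2d4 overlaps Lrtm2, Cacnb1 overlaps Rpl19, Hcn3 overlaps Pklr, Cacna1d overlaps Chdh and Dcp1a, and Cacna2d3 overlaps Lrtm1. Whether reads there were assigned by strand is not given in the sources used here, so counts of these genes are less certain. No other protein-coding gene overlaps Cacnb4, Scn1a, Scn8a, Cacna1i, Cacnb3 or Scn10a.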

How the data were processed

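RNA of the cortex of 13 lines of 8 mice was sequenced. Reads were handled with STAR 2.7.3a and HTSeq 0.10.0, with builds GRCm38 and mm10, per the submitters' processing notes. The deposited RefSeq table holds whole read counts per gene for 24060 genes, and the authors also deposited FPKM on RefSeq and on Ensembl genes. Whether counting used strand is not given in the sources used here.

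Counts were tested with the quasi-likelihood test of edgeR 4.0.16 (R 4.3.3), with TMM scaling, a filter on low counts by line and sex (filterByExpr, 15723 genes kept), and line and sex in the model. Each line was compared with the mean of the other 12. Every adjusted p is Benjamini-Hochberg over all tested genes, called under 0.05. Errors after ± are standard errors of log2 values unless named SD. CPM are counts scaled to 1e6 reads after TMM scaling. List scores are mean log2 CPM with a prior count of 2. FPKM were used for levels between genes and, in limma 3.58.1 on log2(FPKM + 0.1) and log2(FPKM + 1), as an alternative test, as was DESeq2 1.42.0. The tests were tested on simulated data. Total counts of 3.39 to 33.5 (in 1e6 reads) set the precision: Scn10a had a median of 9 reads per library and Scn8a 19563.

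The members and lists were chosen with earlier results of these data known. Members are named with their levels; results of some members are not reported here, but counts of called members include them. Test values are given for called members, and where more than 12 were called in a comparison, for the 6 with the smallest p and the highest and lowest by fold. Within each subfamily the 2 highest by FPKM and those of largest and smallest SD are described. Called channel partners are named, with values for up to 4. Libraries of the same line and sex were compared for duplicates, and the closest of 156 pairs had a chi-square of 2.49 per degree of freedom, so all were kept apart. Other settings covered scaling, filters, annotation, plate, covariates, and leaving out libraries or lines. Promoter sequences and coordinates are those of RefSeq, GRCm38.p6.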

Additional observations from a re-analysis of the deposited data

Results flagged for a closer look

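Within each line, the CPM of 11 called members were searched for a library far from the other 7, by Dixon's test at its 95% critical value. Of 143 groups of 8 libraries 13 had such a library, and chance flags about 1 in 20 groups.

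Zswim6 female replicate 50 stood apart in 2 genes: Cacna1c at 149 CPM (others 118 to 131) and Scn2a1 at 567 CPM (470 to 510). Gsg1l male replicate 13 stood apart in Scn8a at 517 CPM (621 to 702) and Cacna1c at 101 CPM (121 to 139). Ece2 male replicate 12 stood apart in Scn1a at 348 CPM (420 to 474) and Scn8a at 640 CPM (678 to 712), and Ece2 female replicate 11 in Cacna1i at 275 CPM (224 to 247).

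The rest were single genes. In the Tbc1d8 line Cacna1h was at 78.5 CPM in female replicate 46 (others 66.6 to 71.9), and Cacnb4 at 386 CPM in male replicate 47 (408 to 421). Cacna2d4 was at 2.14 CPM in Arpp19 male replicate 3 (2.79 to 3.37), and Scn2a1 at 459 CPM in Dach1 female replicate 7 (480 to 492). Cacna1c was at 161 CPM in Hrk male replicate 17 (124 to 137), and Cacna1i at 217 CPM in Kdm3b male replicate 22 (234 to 250).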

How the results depend on the processing

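No called difference changed sign under any setting tried. Of the alternative values for counts of members 197 stayed within 1.5 times the reported count and 11 did not, and of those for single genes 1040 kept their side of the threshold and 107 lost the call. The counts below are given without the share of all tested genes called in the same fit, which can move too. On plate 1 alone 5 members were called between lines, 6 in Tbc1d8 and 5 between the sexes. With the 4 tissue scores as covariates 5 were called between lines, 5 in Tbc1d8 and 10 over the 13 lines (16 in the reported fit). Without the Tbc1d8 and Gsg1l lines 0 were called between lines; these 2 lines were chosen because members were called in them. The striatal score gave 12 with genes of mean CPM of at least 1, and the interneuron score gave 1 without a filter on low counts and 1 with DESeq2. The cause was not tested. Leaving out each library of the Tbc1d8, Gsg1l and Dach1 lines in turn gave 7 to 11 members called between lines, 6 to 11 in Tbc1d8, 4 to 6 in Gsg1l and 12 to 17 over the 13 lines, and leaving out each line gave 2 to 4 between the sexes. In Tbc1d8 Cacna1h, Cacna1i, Cacnb4, Scn1a and Scn8a were called under all 36 settings tried, and in Gsg1l Cacna1i, Cacnb3 and Cacnb4 were. With the title number as a replicate block in place of line, 2 members were called between the sexes, Scn10a and Scn2b. Of 52 same-numbered pairs 3 had a correlation of deviations over 0.1 (median -0.121, from -0.362 to 0.131). Fitting line and sex itself pulls such correlations below 0, so these values cannot tell whether the numbers tie libraries weakly. Counting error limits Scn10a, Scn11a and Scn4a most.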

Other observations

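The ratio of the median FPKM on Ensembl genes to that on RefSeq genes was not the same for all channel genes. It was 0.345 for Cacnb2 and 0.909 for Scn10a. Both sets of FPKM come from the same libraries.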
